A study of Mus musculus with 2 samples.

Results

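Single sour taste cells of the mouse tongue were divided by how much keratinocyte RNA each library held. Of the 56 single sour cells in the table, 52 had reads on at least 1000 genes and were kept. In each, the read counts scaled to 1000000 gene reads (counts per 1000000, CPM) of Krt4, Krt13, Krt5, Krt14 and Krt15 were summed; the 26 cells above the median sum are called keratin-rich and the 26 at or below it keratin-poor. The groups were thus chosen by the measured CPM of these 5 keratins, so the levels of these 5 genes are a description and carry no test.

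The cells came from tongue epithelium of Pkd2l1-tdTomato mice on a C57BL/6 background, a line whose red fluorescent reporter is named for Pkd2l1, a gene of sour taste cells; how the reporter is driven is not in the labels. They were sorted one by one as tdTomato-positive cells, and libraries were made with the SMART-Seq Ultra Low Input chemistry and Nextera XT tagging. Pools of 50 to 100 sorted cells from the same mouse line serve as a comparison that the split did not use: 2 sour pools (tdTomato-positive) and 4 control pools (tdTomato-negative, other taste cells and supporting cells). The labels give no treatment and no age of the mice, and nothing in the labels ties a pool or a cell to an animal.

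Sour taste cells, also called type III cells, sit in taste buds, detect protons through the channel Otop1 and pass the signal to nerve endings by synapse-like release. The taste buds are embedded in a stratified epithelium. Its basal keratinocytes divide and make the keratins Krt5, Krt14 and Krt15, and cells that leave the basal layer switch to Krt4 and Krt13 and to proteins of the cell envelope and of desmosomes, the junctions that hold keratinocytes together.

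The 52 cells held 219578 to 914244 gene reads on 1049 to 6466 genes and belong to 1 deposited sample. Differences between cells are therefore given by their size alone. The labels place the pools on plates 1 to 3 by library number; if the same numbering holds for the cells, which the labels do not give well by well, all 52 were on plate 4. The 2 sour pools had 188502 and 403163 gene reads and the 4 control pools 343750 to 680952. Reads of the tdTomato transcript were few: 8 of 26 keratin-poor and 8 of 26 keratin-rich cells had any, with at most 22 reads in a cell. Snap25 and Ncam1, an exocytosis and an adhesion gene on the type III list, had reads in all 52 cells. Of the same list, Otop1 had reads in 45 cells and Chga in 38.

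The keratin sum ran from 131 to 1180 CPM in keratin-poor cells (median 539) and from 1253 to 28021 CPM in keratin-rich cells (median 3860). No gap separated the groups at the median itself, 1216 CPM, and 16 cells lay within 1.5-fold of it, 9 poor and 7 rich. The rich cells fell into a pair of ranges. In the lower range, 13 cells had 1253 to 2583 CPM (median 1719), and in the upper range 13 cells had 5138 to 28021 CPM (median 11028). The step between the ranges was 1.99-fold, and the next widest step among rich cells was 1.42-fold. The ranges were set after the values had been seen. Both sour pools, at 1468 and 2133 CPM, lay within the lower range. The control pools had 69359 to 87328 CPM, above every cell. On average the sum was 0.767% of the control pool mean in poor cells, 2.30% in the lower range and 16.8% in the upper range.

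**Figure D1:**
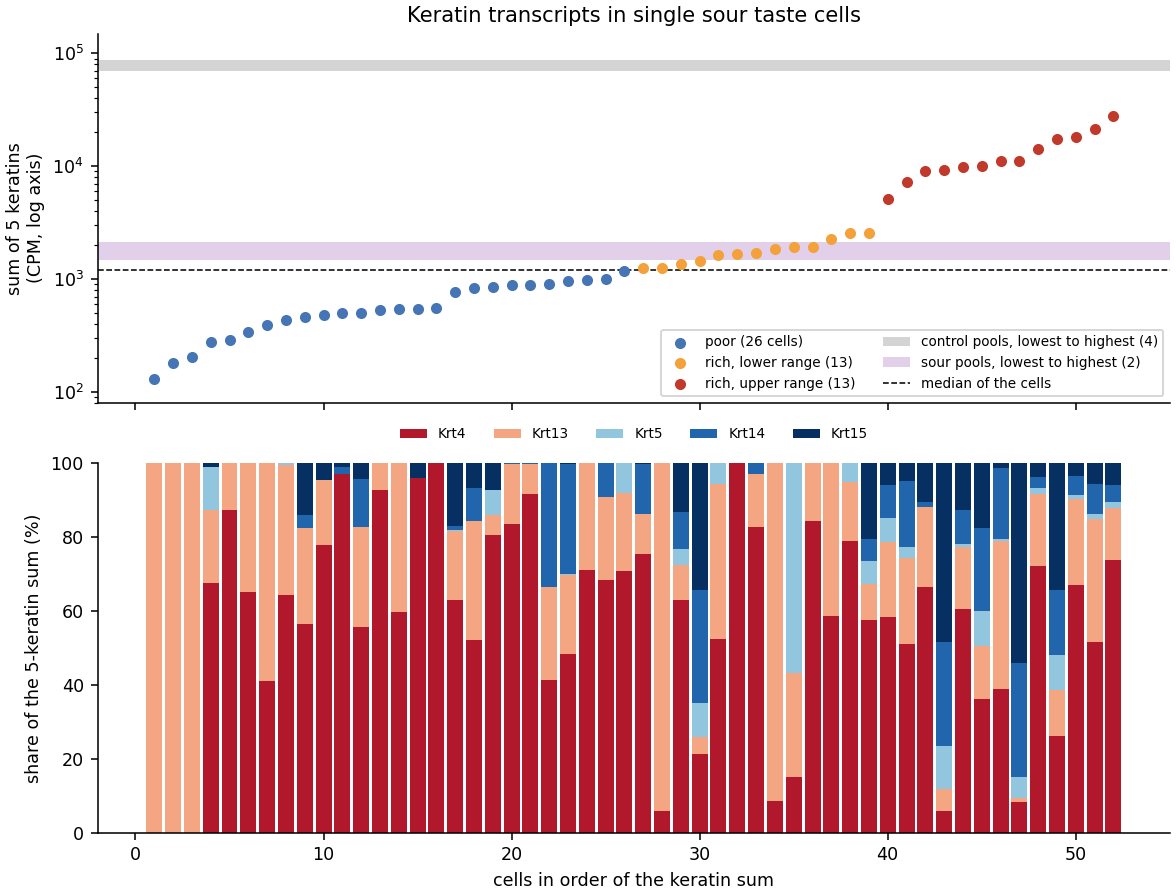
Top, the summed CPM of 5 keratins in each of 52 single sour cells (points, log axis), in order of the sum, with bands for the lowest to highest sour and control pools and a dashed line at the median. Bottom, the share of each keratin in that sum; the upper range (5138 to 28021 CPM) stands above the other cells and below the control pools (69359 to 87328 CPM).

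The 5 keratins did not appear in equal measure. Krt4 had a read in 23 of 26 poor cells (median 406 CPM), in all 13 lower-range cells (median 945 CPM) and in all 13 upper-range cells (median 4591, highest 20649 CPM). Krt13, its partner in suprabasal cells, had medians of 139, 298.6 and 1950.3 CPM in the same order. At least 1 basal keratin had a read in 16 of 26 poor, 8 of 13 lower-range and all 13 upper-range cells. Median levels of each were 0 CPM in poor and in lower-range cells. In upper-range cells the medians were 297 CPM for Krt5, 1302 CPM for Krt14 and 1225 CPM for Krt15. Krt14 had a read in 10 of 26 poor, 5 of 13 lower-range and 13 of 13 upper-range cells, and Krt15 in 10, 4 and 13. Krt5 had one in 6 poor, 6 lower-range and 12 upper-range cells. All 5 keratins were seen together in 12 of 13 upper-range cells, 3 of 13 lower-range cells and 2 of 26 poor cells. Reads of Krt14 can be shared with its close relatives Krt16 and Krt17, so the split between these genes is uncertain.

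Within the upper range the makeup differed from cell to cell. The share of the sum taken by the basal keratins had a median of 21.3% and ran from 8.37% to 90.5%, and 3 of the 13 cells were above 50%. In the library numbered 365, 90.5% of 11057 CPM was basal keratin, with 5980 CPM of Krt15 and 3417 CPM of Krt14. In the library numbered 318, which had the highest sum, 12.0% was basal and Krt4 alone gave 20649 CPM. The control pools had basal shares of 36.6% to 56.9% and the sour pools 17.2% and 10.4%. Upper-range cells thus lay both above and below the control pools in their basal share.

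Genes detected moved with the split, in opposite directions in the ranges. Poor cells had reads on 1586 to 5971 genes (median 4545.5) and rich cells on 1049 to 6466 (median 3965). Lower-range cells had a median of 3016 (1049 to 4096), and upper-range cells a median of 5518 (1636 to 6466). With each cell thinned to 200000 gene reads, which left out no cell, the medians were 4285.5 genes in poor, 2839 in lower-range and 5201 in upper-range cells. Gene reads differed less, with medians of 521054, 441836 and 537313. Reads outside genes made up medians of 32.9%, 32.8% and 29.3% of counted reads. Over all 52 cells the keratin sum had a Spearman rho of 0.19 with genes detected and 0.03 with gene reads. The part that genes detected play in the differences below was not tested. List values adjusted for it, and among cells with at least 4000 genes, are given further on.

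**Figure D2:**
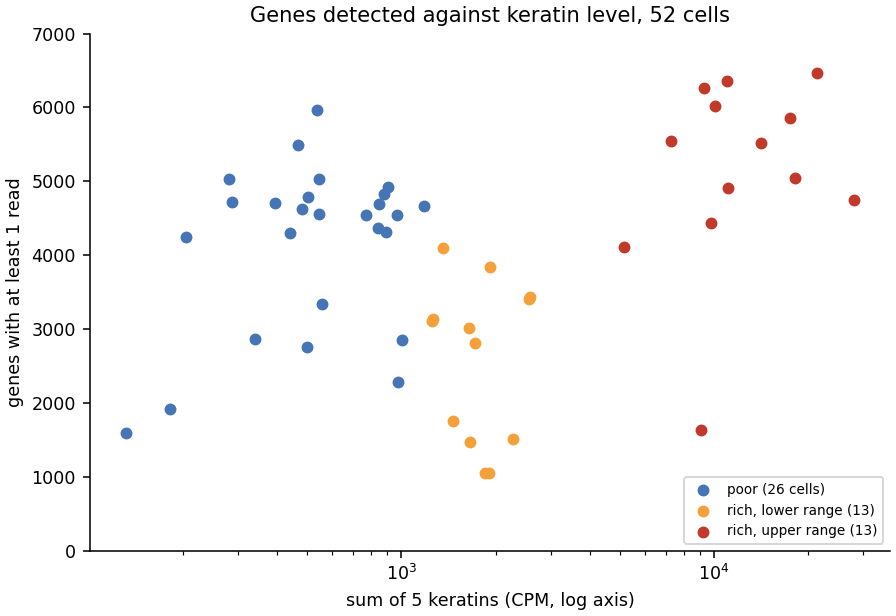
Number of genes with at least 1 read (vertical axis) against the summed CPM of 5 keratins (horizontal log axis), 1 point for each of 52 cells. Lower-range cells reach at most 4096 genes, and the median upper-range cell has 5518.

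Differences over the other genes are differences of the mean of log2(CPM + 1), rich minus poor, for the 7717 genes with a read in at least 10 cells; a gene counts as higher or lower when the difference is at least 1 in size. Of these, 748 genes (9.69%) were higher and 1627 (21.1%) were lower in rich cells, and the median gene differed by -0.25. Upper-range cells against poor cells had 2411 genes higher (31.2%) and 751 lower (9.73%), with a median of 0.38. Lower-range cells against poor cells had 312 higher (4.04%) and 3712 lower (48.1%), with a median of -0.94. Of the 748 genes higher in all rich cells, 715 were also higher in the upper range and 224 in the lower range. A further count shows how far the ranges differ: 827 genes were higher in the upper range and lower in the lower range than in poor cells. Adjusted for genes detected, 996 genes were higher and 1208 lower in rich cells (median -0.09), and among cells with at least 4000 genes 1984 were higher and 1278 lower (median 0.15). A gene seen mostly in 1 group can pass the filter of 10 cells through that group alone, so the counts over a list describe the members that passed.

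The genes with the largest difference in favour of rich cells were mostly ones known from stratified epithelium. The 12 largest were Serpinb3a (5.34), Dmkn (4.91), Gja1 (4.82), Ly6d (4.71), Aldh3a1 (4.57), Them5 (4.45), Calml3 (4.33), Krt6b (4.20), Gpx2 (4.06), Cd44 (3.93), Aqp3 (3.83) and Krtdap (3.67). Dmkn (dermokine) and Krtdap are secreted by differentiating keratinocytes, Gja1 encodes the gap junction protein connexin 43, Ly6d is a surface protein of squamous epithelium, Calml3 is a calmodulin-like protein of epithelia and Aqp3 is a water and glycerol channel of the basal epidermis. Aldh3a1 is an aldehyde dehydrogenase, Gpx2 a glutathione peroxidase and Cd44 the receptor for hyaluronan. All 12 kept a difference above 1 after adjustment for genes detected and among cells with at least 4000 genes. Upper-range differences from poor cells were 5.28 to 8.67 for these genes, and lower-range differences 0.58 to 2.83.

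Dmkn (chromosome 7, 30763756 to 30781063, GRCm38) had a read in 10 of 26 poor cells (38.5%, exact 95% interval 20.2% to 59.4%), with at most 215 CPM. In the lower range it had a read in 7 of 13 cells (53.8%, 25.1% to 80.8%), with a median of 25.9 and at most 1333 CPM. In the upper range all 13 cells had reads (100%, 75.3% to 100%), from 189 to 5326 CPM with a median of 1189. The upper range overlapped the poor cells only at its low end. The sour pools had 37.2 and 37.1 CPM, and the control pools 2962, 2278, 2643 and 3346 CPM (edgeR quasi-likelihood adjusted p = 4.07e-07 for control against sour). Intervals cover counting of cells only.

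Gja1 (chromosome 10, 56377330 to 56402513) had no read in either sour pool, and 2010, 1821, 596 and 2918 CPM in the control pools (edgeR adjusted p = 7.84e-06). It had a read in 11 of 26 poor cells, with at most 704 CPM, and in 5 of 13 lower-range cells, with at most 1362 CPM. All 13 upper-range cells had reads, from 453 to 7074 CPM with a median of 1617. The upper-range median was thus inside the span of the control pools. Connexin 43 RNA was at 0 in the pools of sour cells and present in every upper-range sour cell.

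Serpinb3a (chromosome 1, 107045587 to 107052303), a protease inhibitor gene of squamous epithelium, had 10 of 26 poor cells with a read (at most 500 CPM) and 13 of 13 upper-range cells (135 to 9479 CPM, median 1071). Its pools did not follow the cells: the sour pools had 47.1 and 165 CPM and the control pools 235, 13.1, 21.4 and 64.0 CPM (edgeR adjusted p = 0.89). Serpinb3a has near-identical neighbours, and how reads were divided among them is uncertain. Krt6b, a near-identical copy of Krt6a, missed the threshold in the pools (edgeR adjusted p = 0.0687), and passed it with the plate of each pool as a block (edgeR adjusted p = 0.00297). The other 10 of the 12 genes were higher in control pools by edgeR, where 14.4% of all tested genes were.

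**Figure D3:**
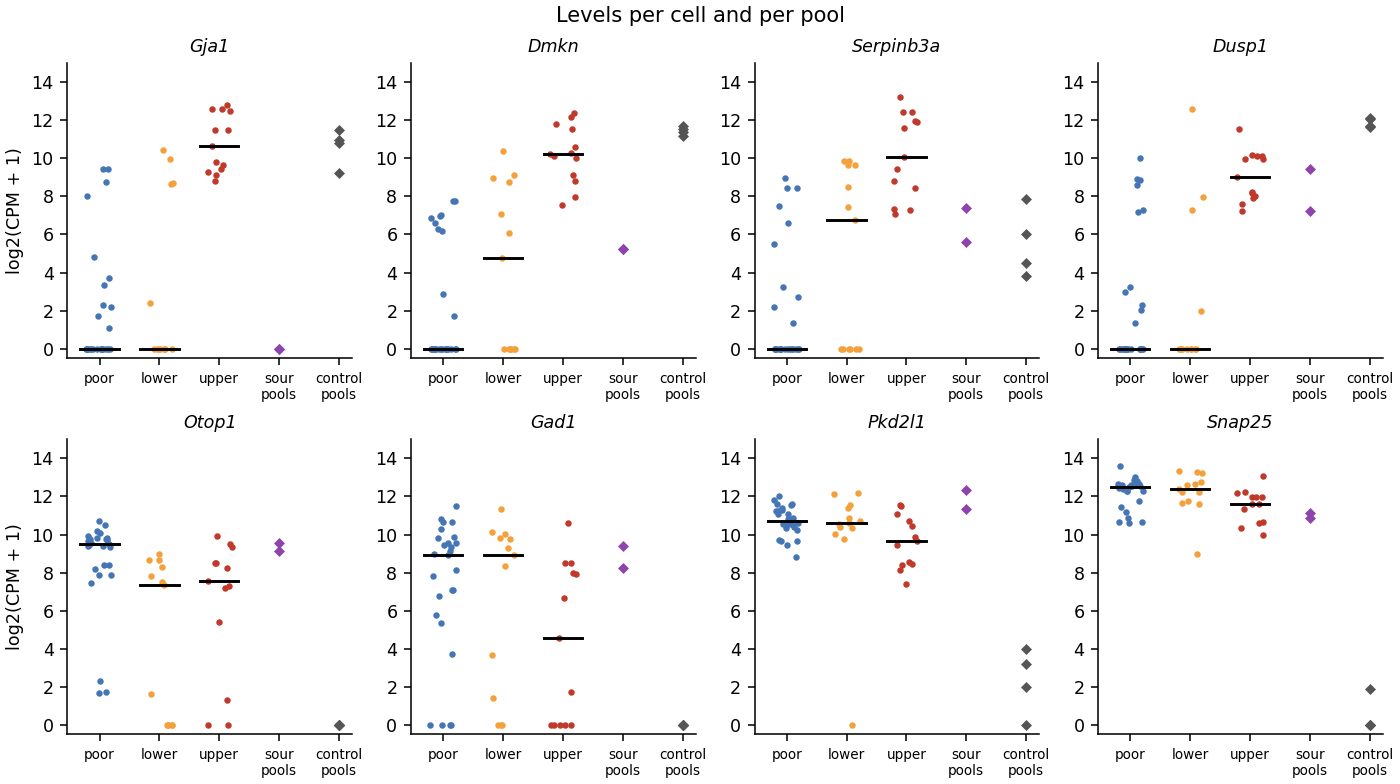
Log2(CPM + 1) of 8 genes in poor (26), lower-range (13) and upper-range (13) cells, points for cells and bars for medians, with diamonds for 2 sour and 4 control pools. Gja1, Dmkn, Serpinb3a and Dusp1 have reads in all 13 upper-range cells, while Otop1 has reads in 26 of 26 poor, 8 of 13 lower-range and 11 of 13 upper-range cells.

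Differentiated keratinocyte genes were higher as a group. Of the 37 genes on this list, 34 were compared; 29 were higher and 0 lower in rich cells (9.69% and 21.1% of all genes), and the median difference was 2.63, against -0.25 over all genes compared. In the upper range 32 were higher and 0 lower (median 4.58), beside 31.2% and 9.73% of all genes. In the lower range 12 were higher and 4 lower (median 0.60, against -0.94 over all genes), beside 4.04% and 48.1%. The adjusted values had 29 higher and 0 lower (median 2.89). The summed CPM of the list was 1322 to 5506 in poor cells (median 4086), 3210 to 10934 in lower-range cells (median 5839) and 8897 to 66527 in upper-range cells (median 13879). The upper range lay above every poor cell.

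Among the members, the desmosomal cadherin Dsc3 had a read in 3 of 26 poor, 3 of 13 lower-range and 10 of 13 upper-range cells (difference rich minus poor 3.65). Its family member Dsg3 was seen in 0, 0 and 7 cells. Lgals7, a galectin of stratified epithelia, had medians of 3.54 CPM in poor, 66.6 CPM in lower-range and 480 CPM in upper-range cells (difference 3.56). Tgm1, a transglutaminase that links envelope proteins, was seen in 1 of 26 poor, 2 of 13 lower-range and 8 of 13 upper-range cells. Rptn, Crct1, Sprr1b and Cnfn, genes of the last steps of cornification, were seen in 8, 8, 10 and 11 of 13 upper-range cells. They did not have the level of the upper range in the control pools: Rptn had no control read, Sprr1b had at most 2.94 CPM there, and Cnfn was lower in control than in sour pools (edgeR adjusted p = 0.0205, and 0.0709 with the plate of each pool as a block). Of the 27 genes on this list tested in the pools, 21 were higher and 1 lower in control pools (23 and 0 with the plate as a block), where 14.4% of all tested genes were higher and 15.0% lower. Lower-range and poor cells did carry single members at high level, such as Anxa1, which had reads in all 52 cells and differed by 0.47.

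Basal and progenitor genes other than the score keratins followed the upper range. Of the 20 genes listed, 13 were compared. Of these, 7 were higher and 1 lower in rich cells, beside 9.69% and 21.1% of all genes. The median difference was 1.15, against -0.25 over all genes. With genes in at least 20 cells the median was 0.54. Trp63, for one, reached the filter of 10 cells through its reads in 11 rich cells. After adjustment for genes detected 7 were higher and 0 lower (median 1.30). Against poor cells, 9 were higher in the upper range and 0 lower (median 2.18), beside 31.2% and 9.73% of all genes (median 0.38). In the lower range 0 were higher and 3 lower (median -0.21), beside 4.04% and 48.1% of all genes (median -0.94). Trp63, the transcription factor of basal keratinocytes, had a read in 2 of 26 poor, 1 of 13 lower-range and 10 of 13 upper-range cells. Its upper-range median was 158 CPM, against 184 to 501 CPM in control pools. Krt17, a keratin of activated keratinocytes, was seen in 7, 3 and 12 cells. Wnt10a, a Wnt ligand of tongue epithelium, was seen in 1, 1 and 8 cells.

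Hemidesmosome genes, which fix basal cells to the basement membrane, were too rare for the comparison over all genes and are given as counts. Col17a1 was seen in 0 of 26 poor cells (up to 13.2% by its exact 95% interval), in 0 of 13 lower-range cells (up to 24.7%) and in 8 of 13 upper-range cells (61.5%, 31.6% to 86.1%). Itgb4, its integrin partner, was seen in 0, 0 and 6 cells. Both were higher in control pools by edgeR (adjusted p = 2.88e-06 and 3.95e-05).

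**Figure D4:**
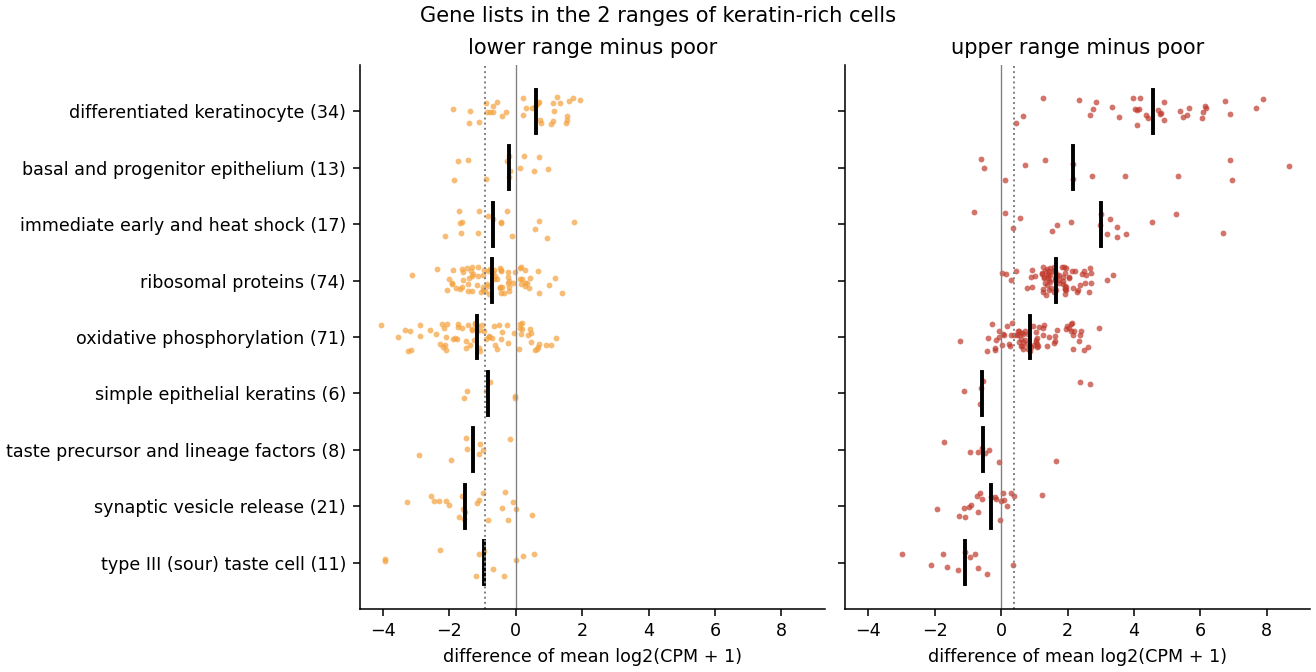
Difference of mean log2(CPM + 1) from poor cells for each gene of 9 lists (points; number compared in brackets), in lower-range (left) and upper-range (right) cells, with a bar at each list's median and a dotted line at the median of all 7717 genes (-0.94 and 0.38). The differentiated keratinocyte median is 0.60 on the left and 4.58 on the right.

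Genes of the sour programme were seen in every cell, and the list median was lower in rich cells. Of 14 type III genes, 11 were compared; 0 were higher and 6 lower in rich cells (21.1% of all genes were lower), with a median difference of -1.06 against -0.25 over all genes. In the upper range 6 were lower, where 9.73% of all genes were (median -1.08 against 0.38 over all genes). In the lower range 5 were lower, where 48.1% of all genes were (median -0.96 against -0.94). The number of type III genes seen in a cell was 6 to 13 in poor cells (median 10). It was 4 to 11 in lower-range (median 8) and 4 to 12 in upper-range cells (median 10). The summed CPM of the type III genes was 4375 to 23840 in poor cells (median 15365). It was 9671 to 26664 in lower-range cells (median 15249.9) and 2986 to 16045 in upper-range cells (median 7467). Upper-range cells overlapped the others, and their median was below those of both other groups. CPM are shares of a library, so less of these transcripts and more of all others cannot be told apart. After the same adjustment 5 of 11 were lower (median -0.95). The size of the list difference rested on the choice of cells and of score keratins: the median was -0.44 among cells with at least 2000 genes, -0.58 with the split by Krt4 and Krt13 alone and -0.20 with the split by Krt5, Krt14 and Krt15 alone.

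Otop1 (chromosome 5, 38275972 to 38304217), the proton channel gene of sour taste, had the largest difference on the list, -3.03. It had reads in all 26 poor cells (100%, exact 95% interval 86.8% to 100%), at 2.17 to 1646 CPM with a median of 717. It had reads in 8 of 13 lower-range cells (61.5%, 31.6% to 86.1%; median 163, highest 495 CPM). In the upper range it had reads in 11 of 13 cells (84.6%, 54.6% to 98.1%; median 188, highest 982 CPM). The sour pools had 742 and 552 CPM and the control pools none. The difference was -2.64 after adjustment for genes detected and -2.28 among cells with at least 4000 genes.

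Other type III genes divided by range. Gad1, which makes the transmitter GABA, had medians of 487, 481 and 22.4 CPM in poor, lower-range and upper-range cells and was seen in 22 of 26, 10 of 13 and 8 of 13. Chga, a secretory granule gene, was seen in 22 of 26, 6 of 13 and 10 of 13 cells. Pkd2l1, the gene for which the reporter is named, was seen in 26 of 26, 12 of 13 and 13 of 13 cells with medians of 1680.2, 1533 and 799 CPM (difference -0.88). Snap25 was seen in every cell, with medians of 5792, 5379 and 3096 CPM (difference -0.34). In control pools Snap25 had 2.62 CPM in 1 pool and no read in the other 3, and Pkd2l1 had at most 14.5 CPM. Ddc, the decarboxylase of serotonin synthesis, differed by -1.43 and Car4, a carbonic anhydrase, by -1.06. All 11 compared genes were lower in control than in sour pools by edgeR, where 15.0% of all tested genes were.

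Synaptic release genes had 0 of 21 compared members higher and 8 lower in rich cells (median -0.73), beside 9.69% and 21.1% of all genes. In the lower range 13 were lower, where 48.1% of all genes were, and in the upper range 4 were, where 9.73% were. With genes detected adjusted for, 6 were lower (median -0.55), and among cells with at least 4000 genes 4 were (median -0.71). Vamp2, a vesicle fusion protein, differed by -1.82, the active-zone scaffold Pclo by -1.80 and the calcium sensor Syt1 by -1.75. Cplx2, a complexin, was seen in all 52 cells and differed by -0.04. In the upper range the list's median was -0.32, and 0.38 over all genes.

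Of 8 taste lineage factors compared, 0 were higher and 4 lower in rich cells, beside 9.69% and 21.1% of all genes. Their median was -0.93, against -0.25 over all genes. Adjusted for genes detected 2 were lower (median -0.79), and among cells with at least 4000 genes 4 were (median -1.12). Prox1 differed by -1.83 and Foxa2 by -1.71. Sox2, a factor of taste precursors and other tongue epithelium, was seen in 12 of 26, 1 of 13 and 9 of 13 cells, and its upper-range difference was 1.66. The keratins of simple epithelia, which taste cells make, did not all go one way. Krt7 differed by -1.30 and Krt19 by -1.09, while Krt8 differed by -0.33 and Krt18 by -0.72. Krt20 differed by 1.33 and was seen in 19 of 26 poor, 10 of 13 lower-range and 13 of 13 upper-range cells. In control pools Krt20 had no read, and the sour pools had 389 and 812 CPM.

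The 12 genes with the smallest difference were Akirin1 (-3.62), Caprin1, Pak3, Ulk1, Suclg2, Gzma, Zfp664, Kcnip3, Atp6ap2, Mat2a, Gramd3 and Med22 (-3.18). They come from unrelated groups: Pak3 is a kinase and Kcnip3 a calcium-binding protein of neurons, Ulk1 starts autophagy and Atp6ap2 belongs to the proton pump. Their differences in the lower range were -5.38 to -2.58 and in the upper range -3.79 to -1.03. Pak3 was seen in 24 of 26 poor, 5 of 13 lower-range and 9 of 13 upper-range cells. Atp6ap2 was seen in 26, 5 and 11. Ulk1 was seen in 15, 0 and 2. Of these 12 genes, 8 were lower in control pools by edgeR, where 15.0% of all tested genes were. All 12 stayed below -1 after adjustment for genes detected and 11 did so among cells with at least 4000 genes, the exception being Atp6ap2 at -0.49.

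Transcripts of the immediate early and heat shock response, which tissue dissociation is known to induce, moved with the upper range. Of 17 compared genes 8 were higher and 0 lower in rich cells (median 0.77), beside 9.69% and 21.1% of all genes. The upper range had 13 higher (median 2.997), where 31.2% of all genes were. In the lower range 1 was higher and 7 lower (median -0.70), a share of lower genes near the 48.1% of all genes. Adjusted for genes detected 10 were higher and 0 lower (median 1.07), and among cells with at least 4000 genes 13 were higher and 1 lower (median 3.16). Dusp1, a phosphatase of early response, had a read in 11 of 26 poor, 4 of 13 lower-range and 13 of 13 upper-range cells (difference 3.28). Hspa1a differed by 3.14, Atf3 by 3.11 and Nr4a1 by 1.62. Hspa1a has a near-identical copy, Hspa1b, so its own level is uncertain. The summed CPM of the list had medians of 3438 in poor, 3449.8 in lower-range and 7217 in upper-range cells. These 4 genes were also higher in control pools by edgeR (adjusted p = 0.000496 for Dusp1, 0.0103 for Hspa1a, 0.000107 for Atf3 and 0.00487 for Nr4a1). Of the 19 genes of the list tested in the pools, 10 were higher and 0 lower there, beside 14.4% and 15.0% of all tested genes. Fos, Jun and Egr1 were among those without a call. The sour pools differed from each other in the list's sum, with 20240 and 7422 CPM, and the control pools had 20977 to 33248 CPM. Whether this response has a part in the keratin split was not tested.

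Of 74 ribosomal protein genes compared, 13 were higher and 0 lower in rich cells (median 0.50), beside 9.69% and 21.1% of all genes. Upper-range cells had 66 higher (median 1.65), where 31.2% of all genes were higher. Lower-range cells had 3 higher and 26 lower (median -0.72), beside 4.04% and 48.1% of all genes. Adjusted for genes detected 20 were higher (median 0.70), and among cells with at least 4000 genes 57 were (median 1.26), with 0 lower in both. Rpl35 differed by 1.78 and Rpl13a by 1.38. The nuclear genes of oxidative phosphorylation had 10 of 71 higher and 7 lower in rich cells (median -0.07). The upper range had 32 higher and 1 lower, and the lower range 2 higher and 40 lower. All genes divided by range in the same direction, with 31.2% higher in the upper range and 48.1% lower in the lower range. Adjusted for genes detected 13 were higher and 7 lower (median 0.05), and among cells with at least 4000 genes 25 were higher and 0 lower (median 0.68). In the pools 61 of 72 tested ribosomal genes and 5 of 69 oxidative phosphorylation genes were higher in control pools, where 14.4% of all tested genes were, and 0 of either list were lower.

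Markers of other cell types were rare for some types and common for others. None of the immune, muscle and salivary gland genes reached 10 cells, and no cell had a read of the 7 salivary gland genes. Of 13 type II (sweet, umami and bitter) genes, 6 were seen in a cell. Itpr3, the only one compared, differed by -1.14. It had reads in 8 of 26 poor (at most 656 CPM), 0 of 13 lower-range and 4 of 13 upper-range cells. Trpm5, Plcb2 and Gnat3 had no read in any cell. The list's sum was at most 658 CPM in poor, 0 in lower-range and 328 CPM in upper-range cells. Reads of the 12 immune genes were found in 2 of 26 poor, 1 of 13 lower-range and 7 of 13 upper-range cells, with at most 269, 60.1 and 218 CPM, and Ptprc was at 0 in all 52. Of the stromal genes, Dcn (decorin) had reads in 7 of 26 poor, 6 of 13 lower-range and 9 of 13 upper-range cells (difference 3.44). Vwf (von Willebrand factor), the other gene of that list that was compared, differed by -1.51 and had reads in 24, 7 and 12 cells, with a median of 199 CPM in poor cells. Of the same list, Lum, Pdgfra, Pecam1 and Cdh5 were at 0 in all cells. Dcn had 2320 to 2877 CPM in control pools, whereas Vwf had 523 and 393 CPM in sour pools and at most 10.5 CPM in control pools. On the type I list 2 genes were compared and went opposite ways. Hes1, a Notch target, differed by 2.69 and had reads in 12 of 26 poor, 6 of 13 lower-range and 12 of 13 upper-range cells. Nt5e, an ectonucleotidase, differed by -1.31 and had reads in 20, 6 and 11 cells, with a median of 408 CPM in poor cells; it was lower in control than in sour pools by edgeR (adjusted p = 1.93e-05). Slc1a3, a glutamate transporter of type I cells, was seen in 1 cell, of the upper range. Of 22 cell cycle genes, 20 were seen in a cell and 4 were compared. Of these, 2 were higher and 0 lower in rich cells, beside 9.69% and 21.1% of all genes. Pcna, the sliding clamp of DNA replication, was seen in 11 poor, 4 lower-range and 11 upper-range cells (difference 1.34) and Hmgb2, a chromatin protein, in 6, 2 and 9 (1.31). Mcm2, of the replicative helicase, was seen in 8, 3 and 4 cells (0.00) and Tyms, which makes thymidylate, in 7, 2 and 3 (-0.29). Mki67, a marker of dividing cells, was seen in 2 upper-range cells. The list's summed CPM had medians of 180 in poor, 239.6 in lower-range and 391 in upper-range cells. It was 3311 to 5228 in control pools, where 19 of the 22 genes were higher by edgeR, beside 14.4% of all tested genes.

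The control and sour pools gave a comparison that the split did not use. Among 7739 genes tested with edgeR, the calls for control pools were 1113 higher (14.4%) and 1158 lower (15.0%); p-values measure only the spread between these libraries. Without sour pool replicate 1, 638 genes were lower. That pool stood apart in the summed CPM of the immune list, 4174 against 10.6 in the other sour pool and 54.3 to 1882 in control pools; its part in the count was not tested. Of 6339 genes in both comparisons, 9.07% were higher and 17.1% lower in control pools. Of the 653 genes higher in rich cells, 34.2% were higher and 3.83% lower in control pools. Of the 1432 lower in rich cells, 1.54% were higher and 33.1% lower. The 223 shared higher genes were 38.8% of the 575 genes higher in control pools, where 653 of all 6339 genes were higher in rich cells. The upper range alone covered 78.6% of these 575 genes, where 2152 of all 6339 genes were higher in that range. The lower range covered 7.65%, where 250 of all 6339 genes were higher. The shared genes were 21.004% of the 2152 and 17.6% of the 250, beside 9.07% of all 6339 genes. In pools, fewer cells of a type and less RNA per cell cannot be told apart.

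**Figure D5:**
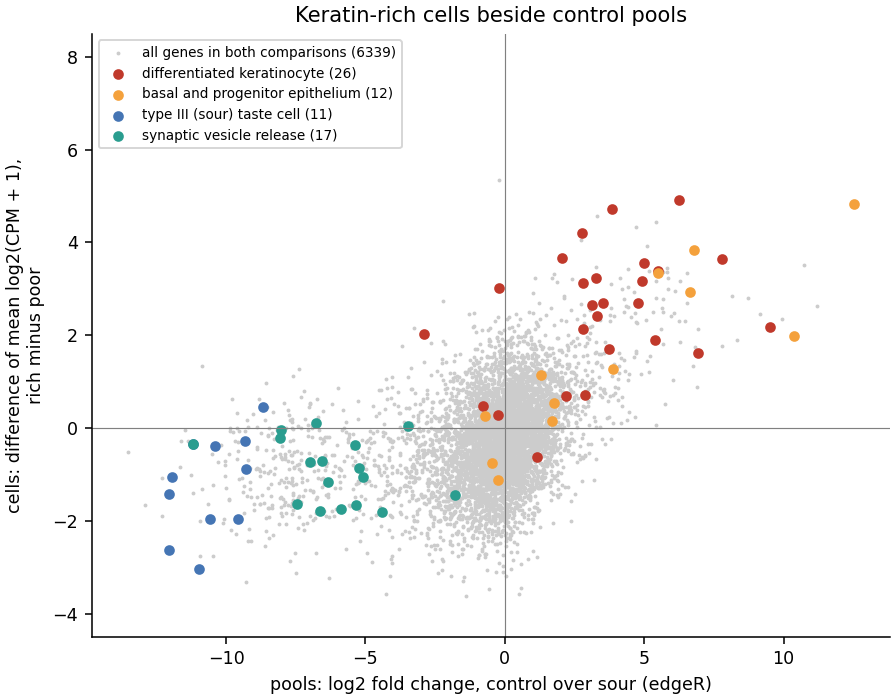
Difference of mean log2(CPM + 1) between rich and poor cells (vertical axis) against the log2 fold change of control over sour pools from edgeR (horizontal axis) for 6339 genes, with 4 lists in colour. Differentiated keratinocyte genes lie mostly at upper right and type III genes at lower left; folds of genes with no read in a pool group depend on edgeR's prior count.

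A set of 20 genes had no read in either sour pool and at least 200 CPM on average in control pools, so that their level in a sour cell can be set against a control level. In upper-range cells all 20 were seen, and their mean level was a median of 11.6% of the control mean (2.21% to 153%), beside 16.8% for the keratin sum. In lower-range cells 10 were seen, with a median of 0.0516%, and in poor cells 9 were seen, with a median of 0%. The groups hold 13 upper-range, 13 lower-range and 26 poor cells, with medians of 5518, 3016 and 4545.5 genes detected. A share over all genes is not given beside these counts, so they are not particular to the set. Gja1 was the highest of the 20 genes in the upper range, at 153% of the control mean. Tgm1 followed at 62.9% and Pax9, a factor of tongue epithelium, at 40.1%. Pax9 was seen in 0 of 26 poor, 0 of 13 lower-range and 10 of 13 upper-range cells. The members thus did not share 1 ratio to the control pools: Ehd2 was at 2.62% and Mki67 at 2.85%. Single sour cells and sour pools can themselves differ in CPM. The simple epithelial keratins summed to a mean of 5225 CPM in the 52 cells and 24457 CPM in the sour pools. Type III genes were closer, at 14153 and 17536 CPM. The percentages are therefore not shares of the RNA of a control cell.

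If library numbers run down the plate columns for cells as the labels give them for pools, columns 1 to 6 of 12 held 12 of 26 poor, 9 of 13 lower-range and 7 of 13 upper-range cells. Restricting the cells to those with at least 4000 genes left 19 poor and 13 rich cells, 12 of the latter from the upper range. Among them the differentiated keratinocyte median was 4.03 with 31 of 34 genes higher, the basal median 2.61 with 9 of 13 higher, and the type III median -0.93 with 5 of 11 lower, against a median of 0.15 over all genes. Since 12 of these 13 rich cells are from the upper range, this is mostly a comparison of that range with poor cells.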

How the data were processed

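RNA of sorted tongue cells was deposited as a table of raw counts of reads per gene symbol for 56 single sour cells and 6 pools. The processing notes of the submitters name STAR, HTSeq and the build GRCm38 (mm10); versions, strand and the treatment of reads with several matches are not given in the sources used here. Summary lines, 92 spike-in rows, 27 symbols turned into dates (at most 1.65% of a library's reads) and 4 reporter rows were left out, leaving 23393 genes. CPM are counts per 1000000 gene reads. No 2 columns were identical, no doublet caller was run, and the ganglion table was not used.

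Cells with at least 1000 genes were split at the median keratin sum. Genes with a read in at least 10 cells were compared by the difference of mean log2(CPM + 1), with a size of at least 1 as the only rule; cells of 1 sample are not replicates, so no p was computed. Shares carry exact (Clopper-Pearson) 95% intervals. Pools were tested with edgeR 4.0.16 (R 4.3.3), quasi-likelihood, TMM scaling, its filter for low counts, Benjamini-Hochberg adjusted p under 0.05 and a fold change of at least 2 (log2 of 1); DESeq2 1.42.0 was an alternative. Cell values were computed with Python 3.11.15, numpy 2.4.6, pandas 2.3.3 and scipy 1.17.1. Both comparisons were tested on simulated data. Coordinates are from GENCODE M21.

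The named genes were the 12 largest and 12 smallest differences (predicted genes, Rik and pseudogene symbols left out), up to 4 genes of each list by size, and the score keratins; other list members and genes of the control-only set were named after their values were seen. Some genes that the rule named are left out of the text. The groups and lists were chosen with earlier results of these data known. Alternatives were thinning to 200000 reads, another denominator, other score genes, cuts, filters and pseudocount, adjustment for genes detected, leaving out the 5 highest cells, and other pool tests; the upper and lower ranges the cells with at least 4000 genes and the pools' plate as a block were added after seeing the data.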

Additional observations from a re-analysis of the deposited data

Results flagged for a closer look

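In each of the following, 1 of the 4 control pools stood far from the other 3; 79 named genes and the depth were looked at, and chance alone marks about 1 in 20 such groups. Gpx2 was at 803 CPM in 1 control pool and at 686 to 698 CPM in the other 3. Atp6ap2 was at 158 CPM in 1 pool, against 118 to 122 CPM. Hes1 was at 628 CPM in 1 pool, against 118 to 158 CPM. Rps21 was at 186 CPM in 1 pool, against 109 to 118 CPM. Krt19 was at 30.8 CPM in 1 pool, against 2.62 to 5.82 CPM. Syt1 (10.7 CPM), Foxa2 (5.35 CPM) and Vwf (10.5 CPM) had reads in 1 control pool and none in the other 3. With 3 pools at 0, any read in the remaining pool sets the flag, so the rate of 1 in 20 does not hold for these genes. For Syt1 the value stands for 4 reads. Gene reads were 680952 in 1 control pool and 343750 to 381039 in the others.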

How the results depend on the processing

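All cells belong to 1 sample, so their differences have no replicate check, and low counts per gene limit what is seen in cells with few genes. With the plate of each pool, which the labels give, as a block, an alternative chosen after seeing the data, 1203 genes were higher and 1224 lower in control pools and the share of rich-higher genes that were higher there was 37.2%; among genes whose pool test is printed, the call changed for Krt6b and Cnfn. The genes higher in rich cells (748) were 2026 with the split by Krt5, Krt14 and Krt15, 1920.0 for the outer terciles, 1254 in cells with at least 2000 genes, 372 for genes in at least 20 cells, 254 with a pseudocount of 10 CPM, 2411 for the upper range, 312 for the lower range and 1984 in cells with at least 4000 genes. The genes lower (1627) were 1060.0 with the split by Krt4 and Krt13, 366 by Krt5, Krt14 and Krt15, 1078 for the outer terciles, 517 with the pseudocount of 10, 751 for the upper and 3712 for the lower range. The difference in median genes detected (-580.5) turned to 558.5 with the split by Krt5, Krt14 and Krt15, 359 for the outer terciles, 216 within strata of genes detected, 972.5 for the upper range and 824 in cells with at least 4000 genes, and was -40 in cells with at least 2000 genes, -1138.5 without the 5 highest cells and -1529.5 for the lower range. The type III median (-1.06) was -0.58 with the split by Krt4 and Krt13, -0.20 by Krt5, Krt14 and Krt15 and -0.44 in cells with at least 2000 genes. The differentiated keratinocyte median (2.63) was 4.17 for the outer terciles, 1.63 with the pseudocount of 10, 4.58 and 0.60 for the upper and lower range and 4.03 in cells with at least 4000 genes. The basal median (1.15) was 1.98 with the split by Krt5, Krt14 and Krt15, 2.05 for the outer terciles, 0.54 for genes in at least 20 cells, 0.71 with the pseudocount of 10, 2.18 for the upper range and 2.61 in cells with at least 4000 genes, and turned to -0.21 in the lower range. The share of genes higher in rich cells that were higher in control pools (34.2%) was 28.9% with the split by Krt4 and Krt13, 19.5% by Krt5, Krt14 and Krt15, 22.9% for the outer terciles, 24.95% in cells with at least 2000 genes, 41.9% with no filter on genes, 53.2% with the pseudocount of 10, 29.9% without the 5 highest cells, 21.004% and 17.6% for the upper and lower range, 24.0% in cells with at least 4000 genes and 28.7% with DESeq2. Leaving out 1 pool at a time gave shares of 24.6% to 36.9%, 761 to 1198 genes higher and 638 to 1286 lower in control pools; the 638 was without sour pool replicate 1. The causes of these changes were not tested, apart from the fewer genes or cells that a filter leaves.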
